A study of Mus musculus with 44 samples.

Results

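The 10 epidermal keratins described here, of 43411 genes measured, were the basal keratins Krt5, Krt14 and Krt15, the suprabasal keratins Krt1, Krt10 and Krt2, and the wound-induced keratins Krt6a, Krt6b, Krt16 and Krt17. They were chosen by name and matched through their Ensembl identifiers, and all 10 passed the filter on low values (a mean normalized count above 3). Gene expression was measured by RNA sequencing of back skin from 44 wild-type female C57Bl/6 mice, in a bleomycin model of the dermal fibrosis of systemic sclerosis. Injections began at 8 weeks of age and were given daily under the skin, and bleomycin was given as 100 uL of a 1 U/mL solution. The 5 groups were 10 mice given saline, 10 given bleomycin for 2 weeks, 10 given it for 4 weeks, 6 mice left to recover for 6 weeks after bleomycin was stopped at 4 weeks, and 8 mice left to recover for 10 weeks. The labels do not say for how long saline was given. In each comparison with saline, of bleomycin or of recovery mice, age at sampling and treatment history therefore cannot be told apart. Whole-skin RNA mixes epidermis, hair follicles, dermis, fat and muscle, and in such bulk samples fewer cells of a type and less RNA per cell cannot be told apart.

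Keratins are the intermediate filament proteins of epithelial cells, and each filament pairs a type I with a type II chain. In resting epidermis the dividing basal layer makes Krt5 with Krt14, and cells that leave it to differentiate switch to Krt1 with Krt10. Wounded or inflamed epidermis adds the stress keratins Krt6a, Krt6b, Krt16 and Krt17, which resting skin otherwise makes mainly in the hair follicle. The type II genes of this set (Krt5, Krt1, Krt2, Krt6a, Krt6b) lie on chromosome 15 and the type I genes (Krt14, Krt15, Krt10, Krt16, Krt17) on chromosome 11 of the mm10 build.

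Reads counted over all genes numbered 8509094 to 15285577 per library (median 11310008). They were recovered from the normalized values and are not the number of reads sequenced. Values are normalized counts, that is read counts divided by a size factor of each library. Non-keratin markers of epidermis were present in all 44 mice, with Lor, a cornified envelope protein, at 5695 to 20012 normalized counts and Trp63, a transcription factor of basal cells, at 2438 to 3886. The libraries least like their own groups were 2-week bleomycin mouse 2 (median correlation with its group 0.938) and saline mouse 1 (0.942), and results were also computed without both. Fold changes are differences of mean log2(normalized count + 1) from a single limma fit over 17037 genes and the 5 groups, given with a standard error (SE). A gene was called changed at a Benjamini-Hochberg adjusted p below 0.05 together with a change of more than 1.5-fold.

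During bleomycin the called changes in the epidermal keratins were in Krt6a, Krt6b and Krt16 of the wound-induced set and in Krt2. At 2 weeks, 3 of the 10 keratins were called higher than with saline (Krt6a, Krt6b and Krt16) and 0 lower, where 9.30% of all genes tested were called higher and 7.43% lower. At 4 weeks, 3 of the 10 were called higher (Krt2, Krt6b and Krt16) and 0 lower, against 10.5% and 7.37% of all genes. The median log2 fold change of the 4 wound-induced keratins was 1.64 at 2 weeks and 1.14 at 4 weeks, beside 0.11 and 0.19 for the 3 basal keratins, 0.14 and 0.05 for the 3 suprabasal keratins, and 0.0025 and -0.00065 over all genes. The wound-induced set was mixed, from -0.45 (Krt17) to 6.42 (Krt6b) at 2 weeks and from -0.34 (Krt17) to 5.10 (Krt6b) at 4 weeks. Krt17 at both times, Krt14 at 2 weeks and Krt10 at 4 weeks met the adjusted p but not the fold threshold. Both comparisons share the saline mice.

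**Figure D1:**
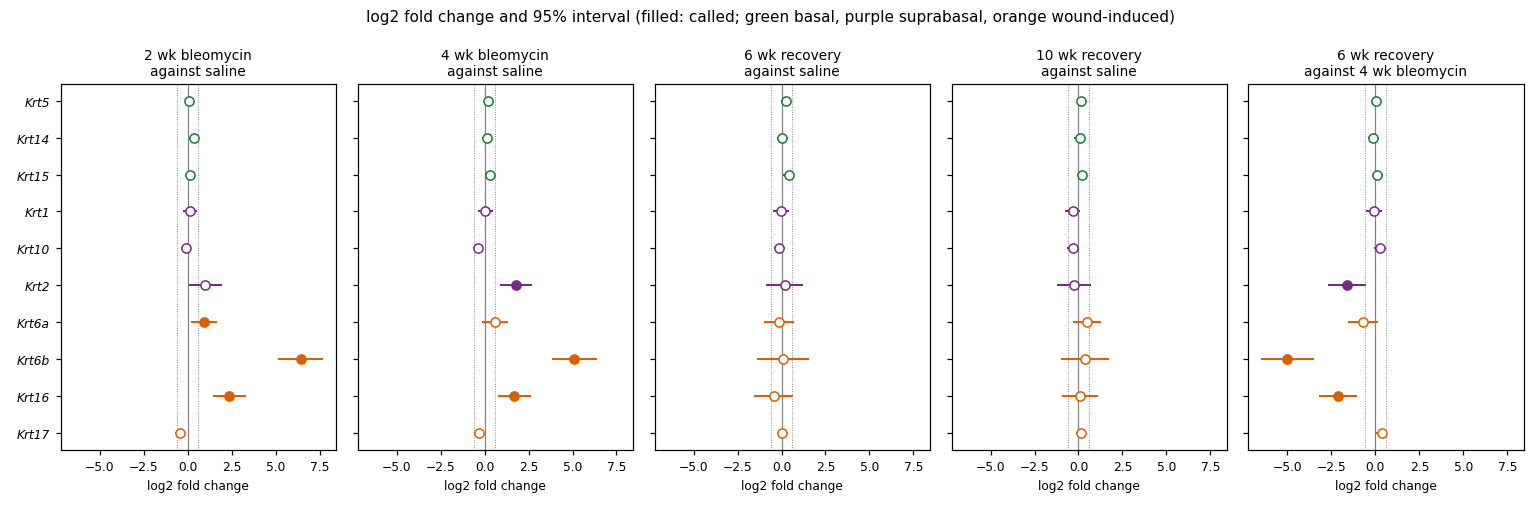
log2 fold change (x axis) of each of the 10 keratins (y axis) in 5 comparisons, with bars for the 95% confidence interval, filled points for called changes and dotted lines at the 1.5-fold threshold. Krt6b reaches 6.42 at 2 weeks and 5.10 at 4 weeks of bleomycin, and in both recovery groups all 10 keratins are drawn with open points.

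Krt6b, a type II keratin of activated keratinocytes, changed most among the 10. With saline it lay at 9.14, 33.9 and 274 normalized counts (lowest, median and highest mouse). With bleomycin it lay at 258, 6193 and 12858 at 2 weeks and at 314, 966 and 9298 at 4 weeks. At 2 weeks 9 of 10 mice were above every saline mouse, and at 4 weeks all 10 were, without overlap of the groups. Groups that do not overlap, with the bleomycin mice higher, were found for 4.31% of all genes at 4 weeks. The log2 fold change was 6.42 (SE 0.64, limma adjusted p = 5.48e-11) at 2 weeks and 5.10 (SE 0.64, limma adjusted p = 1.84e-08) at 4 weeks, an 85.5-fold and a 34.3-fold change of the geometric mean of the count plus 1. The value at 4 weeks was 1.32 below that at 2 weeks on the log2 scale (95% confidence interval of the difference -2.61 to -0.02, limma adjusted p = 0.233), and that difference was not called.

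Krt6a, its near-identical neighbour and also a keratin of the companion layer of the hair follicle, was already abundant with saline. It lay at 1522, 3152 and 9166 normalized counts with saline, at 1860, 7571 and 14311 at 2 weeks of bleomycin, and at 3137, 3783 and 13209 at 4 weeks. At 2 weeks 4 of 10 mice were above every saline mouse, and at 4 weeks 1 was, so that the groups overlapped widely. The log2 fold change was 0.91 (SE 0.36, limma adjusted p = 0.0461) at 2 weeks and 0.58 (SE 0.36, limma adjusted p = 0.221) at 4 weeks. The call at 2 weeks was lost on leaving out any 1 of 14 of the 20 mice compared, with adjusted p up to 0.102 and a log2 fold change of 0.77 without 2-week bleomycin mouse 5. It was also lost with no filter on low values (limma adjusted p = 0.0727) and with saline and 2-week bleomycin alone in the fit (limma adjusted p = 0.0627).

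Reads of Krt6a and Krt6b are hard to tell apart. Both genes lie on the minus strand of chromosome 15, Krt6a at chr15:101689910-101694307 and Krt6b at chr15:101676023-101680287 (GENCODE M21, mm10), and each has 9 exons. Their coding sequences were identical at 97.77% of 1659 aligned bases, with 37 differing bases. Of the 50-base stretches of each transcript (the length of the reads), 61.96% in Krt6a and 50.09% in Krt6b also occurred in another gene, and 972 were common to the pair. The 100-base coding window with most differences, in exon 1 (coding positions 324 to 423), is printed to show what separates their reads, 5′ to 3′ along the gene and with the 7 differing bases in capitals. The Krt6a window is chr15:101693826-101693925 and the Krt6b window chr15:101679801-101679900, both on the minus strand, from the GENCODE transcripts.
Krt6a: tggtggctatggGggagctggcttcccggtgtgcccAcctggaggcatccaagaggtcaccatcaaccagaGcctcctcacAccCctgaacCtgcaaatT
Krt6b: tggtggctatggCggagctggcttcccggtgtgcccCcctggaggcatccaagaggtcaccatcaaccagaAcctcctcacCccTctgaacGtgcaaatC
Elsewhere in the same exon (coding positions 34 to 133) the pair held a window of 100 bases with 0 differences. A 50-base read lying inside it cannot be assigned to either gene by its own sequence, though its mate may lie outside the window.

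The share of Krt6b within the pair, a ratio taken in each mouse, differed between the groups. Per kilobase of transcript, Krt6b made up 0.454%, 1.05% and 12.7% of the sum of Krt6a and Krt6b with saline (lowest, median and highest mouse). It made up 12.4%, 43.5% and 55.0% at 2 weeks of bleomycin and 8.04%, 21.8% and 41.8% at 4 weeks. After recovery the share was 0.522%, 1.75% and 2.57% at 6 weeks and 0.660%, 0.961% and 2.90% at 10 weeks. Apart from saline mouse 6, the highest of that group, every saline and recovery mouse was below every bleomycin mouse. The sum of both genes, an alternative chosen after seeing the data because it does not depend on how their reads were split, had a median of 3185 normalized counts with saline, 14558 at 2 weeks and 4532 at 4 weeks. Fitted as a single feature it rose at 2 weeks (log2 fold change 1.61, SE 0.41, limma adjusted p = 0.00185), and its value at 4 weeks was 0.97 (SE 0.41, limma adjusted p = 0.0624).

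**Figure D2:**
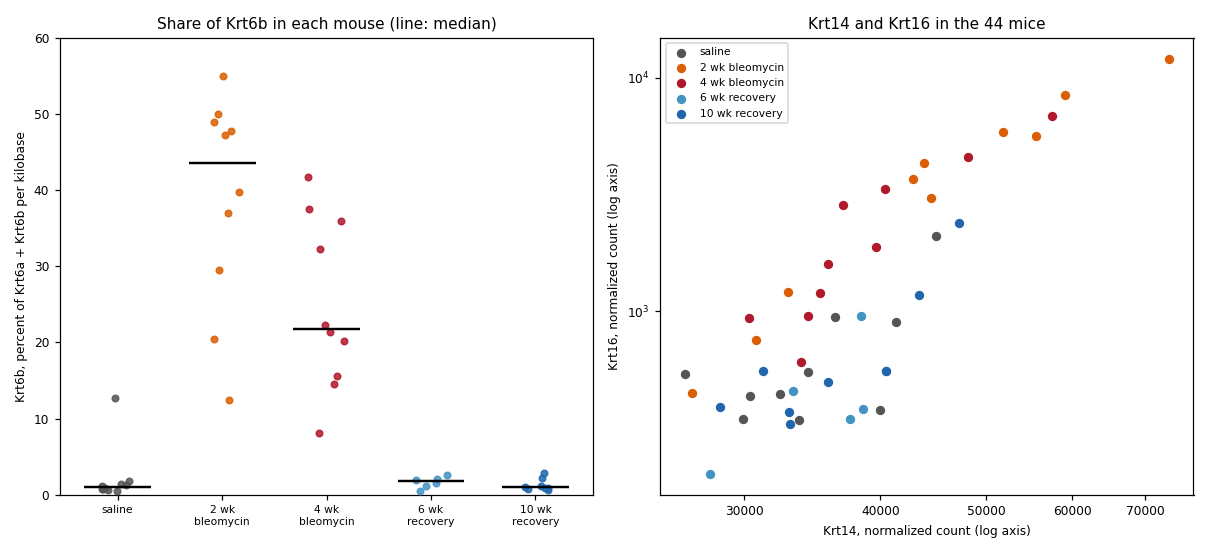
Left, Krt6b as percent of the summed per-kilobase level of Krt6a and Krt6b in each mouse (points) with the group median (line). Right, Krt16 against Krt14 in normalized counts on log axes, 1 point per mouse coloured by group; medians of the Krt6b share are 1.05% with saline, 43.5% and 21.8% at 2 and 4 weeks of bleomycin, and 1.75% and 0.961% after recovery, and mice high in Krt14 are also high in Krt16.

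Krt16, the type I partner of the Krt6 chains, rose at both times. It lay at 341, 491 and 2101 normalized counts with saline, at 445, 3991 and 12072 at 2 weeks and at 604, 1735 and 6873 at 4 weeks. At 2 weeks 7 of 10 mice were above every saline mouse, and at 4 weeks 4 of 10 were. The log2 fold change was 2.38 (SE 0.47, limma adjusted p = 8.55e-05) at 2 weeks and 1.69 (SE 0.47, limma adjusted p = 0.00402) at 4 weeks. Of its 1516 stretches of 50 bases 570 (37.6%) also occurred in another gene, and 382 of them occurred in Gm11597, the gene sharing most. Krt14 and Krt17 came next, and 188 stretches of Krt14 also occurred in Krt16. The level of Krt16 may therefore hold reads of these genes, among them the more abundant Krt14, or lose reads to them.

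Krt17, a keratin of wounds and of the outer root sheath of the hair follicle, was lower, not higher, in most bleomycin mice. It lay at 14947, 18047 and 30242 normalized counts with saline, at 10906, 13238 and 19943 at 2 weeks and at 12055, 14999 and 17715 at 4 weeks. At 2 weeks 8 of 10 mice, and at 4 weeks 4 of 10, were below every saline mouse. The log2 fold changes of -0.45 (SE 0.13, limma adjusted p = 0.00679) and -0.34 (SE 0.13, limma adjusted p = 0.0388) met the adjusted p but not the 1.5-fold threshold, and they were not called. Krt17 was the most abundant wound-induced keratin per kilobase in all 5 groups, with a median of 11636 normalized counts per kilobase with saline against 1384 for Krt6a, 314 for Krt16 and 15.2 for Krt6b. At 2 weeks the medians were 8535 for Krt17, 3324 for Krt6a, 2771 for Krt6b and 2550 for Krt16, and the ranges of the last 3 genes overlapped. Of the 50-base stretches, 3.995% in Krt17 also occurred in another gene, against 61.96% in Krt6a, 50.09% in Krt6b and 37.6% in Krt16. How shared reads were counted is not given, so per-kilobase levels of these genes may not compare evenly. The ratio of Krt16 to Krt17 per kilobase within a mouse had a median of 0.0247 with saline, 0.305 at 2 weeks and 0.116 at 4 weeks.

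**Figure D3:**
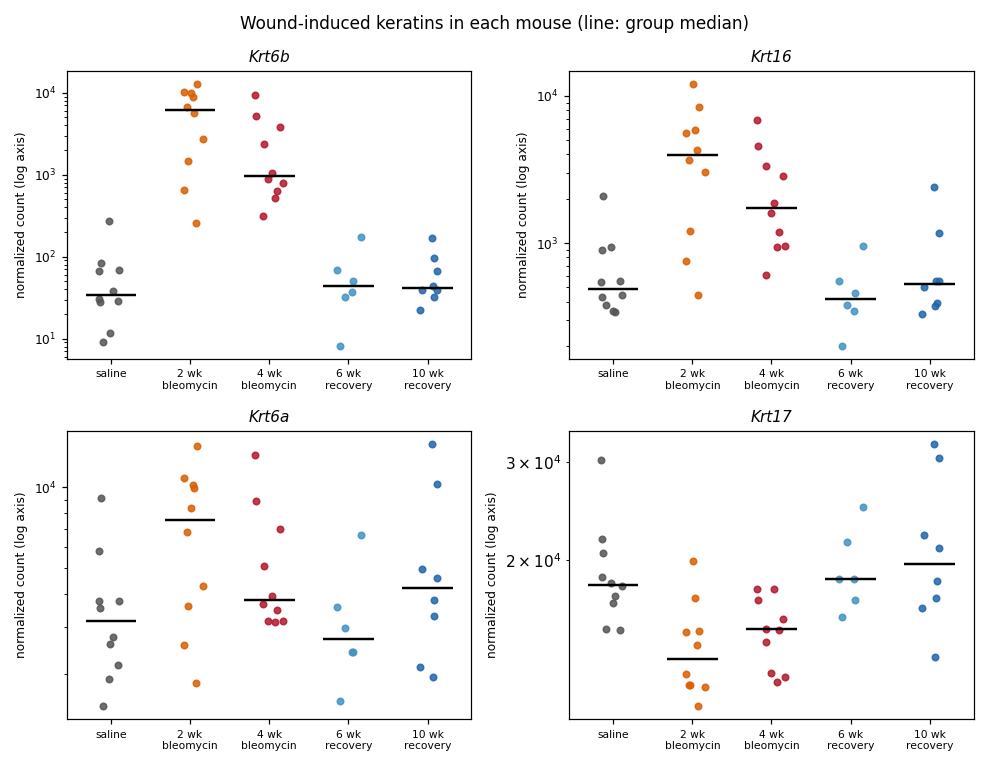
Normalized counts (log axis) of Krt6b, Krt16, Krt6a and Krt17 in each mouse (points) of the 5 groups, with the group median (line). Krt6b medians are 33.9, 6193, 966, 43.96 and 41.4 from saline to 10 weeks of recovery, and Krt17 medians are 18047, 13238, 14999, 18458 and 19646.

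After bleomycin was stopped, Krt6b, Krt16 and Krt2 fell. Between 4 weeks of bleomycin and 6 weeks of recovery 3 of the 10 keratins were called lower and 0 higher, where 7.14% of all genes were called lower and 4.80% higher. Krt6b lay at 8.20, 43.96 and 172 normalized counts at 6 weeks of recovery and at 22.3, 41.4 and 171 at 10 weeks. All 6 mice at 6 weeks of recovery were below every mouse at 4 weeks of bleomycin, a separation found for 5.77% of all genes in this direction. The log2 fold change of Krt6b was -5.01 (SE 0.74, limma adjusted p = 1.32e-06). Krt16 lay at 201, 418 and 958 normalized counts at 6 weeks of recovery, where 5 of 6 mice were below every mouse at 4 weeks of bleomycin, and its log2 fold change was -2.13 (SE 0.55, limma adjusted p = 0.00316). Krt6a lay at 1593, 2701 and 6637, with a log2 fold change of -0.70 (SE 0.42, limma adjusted p = 0.228).

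In the recovery groups, limma called 0 of the 10 keratins against saline at 6 weeks (5.04% of all genes called) and 0 at 10 weeks (3.05%), and edgeR and DESeq2 on the recovered reads also called 0. At an unadjusted p under 0.05, 1 keratin passed at 6 weeks (Krt15, p = 0.0115, limma adjusted p = 0.0851) and 1 at 10 weeks (Krt10, p = 0.0380, limma adjusted p = 0.223), both named after their values were seen. The intervals were wide for the stress keratins. At 6 weeks the 95% confidence interval of the log2 fold change was -1.41 to 1.58 for Krt6b and -1.54 to 0.67 for Krt16, and at 10 weeks it was -1.01 to 1.74 for Krt6b and -0.94 to 1.09 for Krt16. These data therefore do not exclude a change of more than 1.5-fold in either gene after recovery. Between 6 and 10 weeks of recovery limma, edgeR and DESeq2 called 0 of the 10 (0.0880% of all genes with limma), and 0 had an unadjusted p under 0.05. Between 2 and 4 weeks of bleomycin the 3 tools also called 0 of the 10 (2.35% of all genes with limma), and 1, Krt6b, had an unadjusted p under 0.05.

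Krt2, a late suprabasal keratin best known in mice from ear, tail and footsole epidermis, was the only resting keratin of the 6 called in any of the 7 comparisons by limma. It was scarce, with 4 to 393 reads in a mouse. It lay at 5.72, 12.4 and 47.7 normalized counts with saline, at 13.0, 19.2 and 377 at 2 weeks of bleomycin, at 16.5, 40.9 and 170 at 4 weeks, at 4.10, 18.8 and 48.9 after 6 weeks of recovery and at 4.70, 13.8 and 22.7 after 10 weeks. All 10 mice at 4 weeks were above the saline median and 4 of them above every saline mouse. The log2 fold change was 1.79 (SE 0.46, limma adjusted p = 0.00177) at 4 weeks and 1.00 (SE 0.46, limma adjusted p = 0.0840) at 2 weeks. At 2 weeks edgeR (1.86, adjusted p = 0.00666) and DESeq2 (1.84, adjusted p = 0.00267) called it, as did limma without saline mouse 1 (1.19, adjusted p = 0.0392) and without saline mouse 1 and 2-week bleomycin mouse 2 together (1.32, adjusted p = 0.0246). The 2-week value rests in part on mouse 6, at 377 normalized counts against at most 40.1 in the other 9 mice of its group. All 10 mice at 2 weeks were above the saline median, and 1 was above every saline mouse. In fits without mouse 6, those of edgeR and DESeq2 added after seeing the data, Krt2 was not called by limma (0.60, adjusted p = 0.247), edgeR (0.52, adjusted p = 0.355) or DESeq2 (0.51, adjusted p = 0.350). After bleomycin was stopped, by 6 weeks of recovery, Krt2 changed by -1.61 on the log2 scale (SE 0.53, limma adjusted p = 0.0214), a call lost with edgeR (-1.63, adjusted p = 0.0503) and on leaving out recovery mouse 3 (-1.45, limma adjusted p = 0.0580) or mouse 5 (-1.26, limma adjusted p = 0.0960).

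The abundant suprabasal pair, Krt1 and Krt10, was not called in any of the 7 comparisons. Krt10, the type I keratin of differentiating cells, lay at 30515, 63238 and 95960 normalized counts with saline, at 39836, 52920 and 91030 at 2 weeks and at 38003, 46758 and 57131 at 4 weeks. At 4 weeks none of the 10 mice was above the saline median, and the log2 fold change of -0.38 (SE 0.15, limma adjusted p = 0.0381) met the adjusted p but not the 1.5-fold threshold. It lay at 49500, 56434 and 69683 after 6 weeks of recovery and at 37900, 48465 and 67760 after 10 weeks. Krt1, its type II partner, had medians of 20072 with saline, 23995 and 20880 at 2 and 4 weeks and 19930 and 16191 after recovery, within an overall range of 7980.2 to 33097. Its log2 fold changes were 0.14 (95% confidence interval -0.26 to 0.55) at 2 weeks and 0.05 (-0.36 to 0.45) at 4 weeks.

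The basal keratins Krt5, Krt14 and Krt15 were not called either: limma, edgeR and DESeq2 called 0 of the 3 in each of the 7 comparisons. With limma the number at an unadjusted p under 0.05 was 1 at 2 weeks (Krt14), 1 at 4 weeks (Krt15) and 1 at 6 weeks of recovery against saline (Krt15), and 0 in the other 4 comparisons. Krt14, the type I keratin of the basal layer, lay at 26455, 34002 and 45029 normalized counts with saline, at 26847, 44214 and 73649 at 2 weeks of bleomycin and at 30299, 36375 and 57447 at 4 weeks. At 2 weeks 4 of 10 mice were above every saline mouse, and the spread among mice, with a coefficient of variation of 31.0%, was wider than the 16.4% with saline. Its log2 fold change at 2 weeks was 0.35 (SE 0.14, limma adjusted p = 0.0423), under the 1.5-fold threshold. Krt5, its type II partner, had group medians between 56885 and 65275 and log2 fold changes against saline between 0.06 and 0.23. Krt15, a basal keratin that also marks the stem cell region of the hair follicle, lay at 14640, 21914 and 27330 with saline and at 17833, 30434 and 33532 after 6 weeks of recovery, where 4 of 6 mice were above every saline mouse (log2 fold change 0.41, SE 0.16, limma adjusted p = 0.0851).

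**Figure D4:**
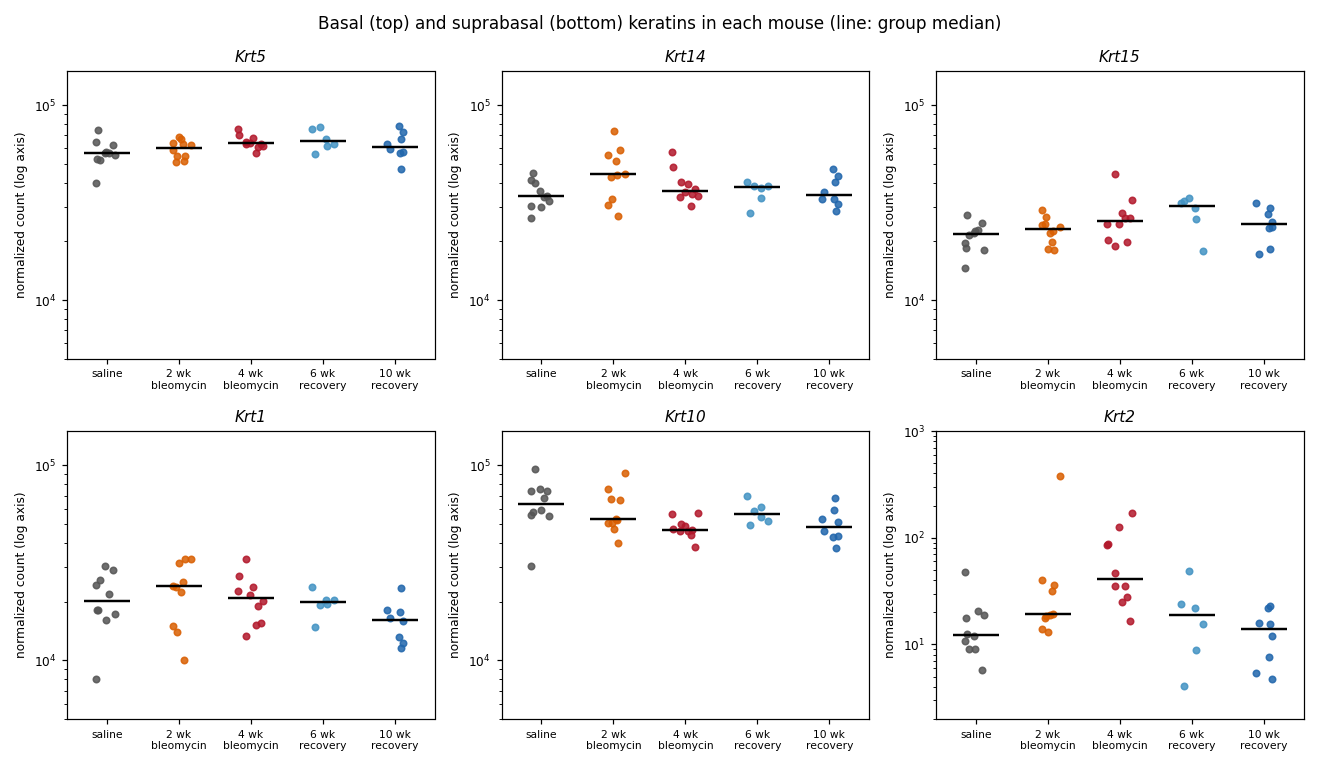
Normalized counts (log axis) of the basal keratins Krt5, Krt14 and Krt15 (top) and the suprabasal keratins Krt1, Krt10 and Krt2 (bottom) in each mouse (points) with the group median (line). Krt5 medians stay between 56885 and 65275, whereas Krt2, on its own lower axis, has medians of 12.4 with saline and 40.9 at 4 weeks of bleomycin.

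Compared per kilobase of transcript, the order of the keratins changed little. The order between genes depends also on how reads shared between them were counted, which is not given. With saline, Krt10 had the highest median (30200 normalized counts per kilobase), followed by Krt5 (25892), Krt14 (20025), Krt15 (12890), Krt17 (11636), Krt1 (8176), Krt6a (1384), Krt16 (314), Krt6b (15.2) and Krt2 (4.73). The ranges of neighbours in that order overlapped, except that Krt6b lay wholly below Krt16. In the other 4 groups Krt5 had the highest median, between 27586 and 29711, and its range overlapped that of the next keratin in each. At 2 weeks of bleomycin Krt6b reached 2771 and stood above Krt16, and Krt2 (7.35) remained last in all 5 groups.

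The basal keratins made up most of the summed per-kilobase level of the 10. Their share had a median of 52.3% with saline (range 47.3 to 58.8%), 55.6% at 2 weeks (49.3 to 62.6%) and 59.8% at 4 weeks (55.3 to 65.5%). The suprabasal share had medians of 34.7%, 29.7% and 27.6%, and the wound-induced share medians of 12.3%, 14.4% and 12.2%. After 6 and 10 weeks of recovery the medians were 57.8% and 57.0% for basal keratins and 30.1% and 28.4% for suprabasal keratins. For wound-induced keratins they were 11.1% and 15.6%, the last being the highest of the 5 groups. The 10 genes took 2.11% of all reads counted in genes with saline, 2.25% at 2 weeks and 2.05% at 4 weeks (medians), and 2.05% and 1.88% after recovery. These shares overlapped between groups, depend on how reads shared between genes were counted, and were not tested.

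**Figure D5:**
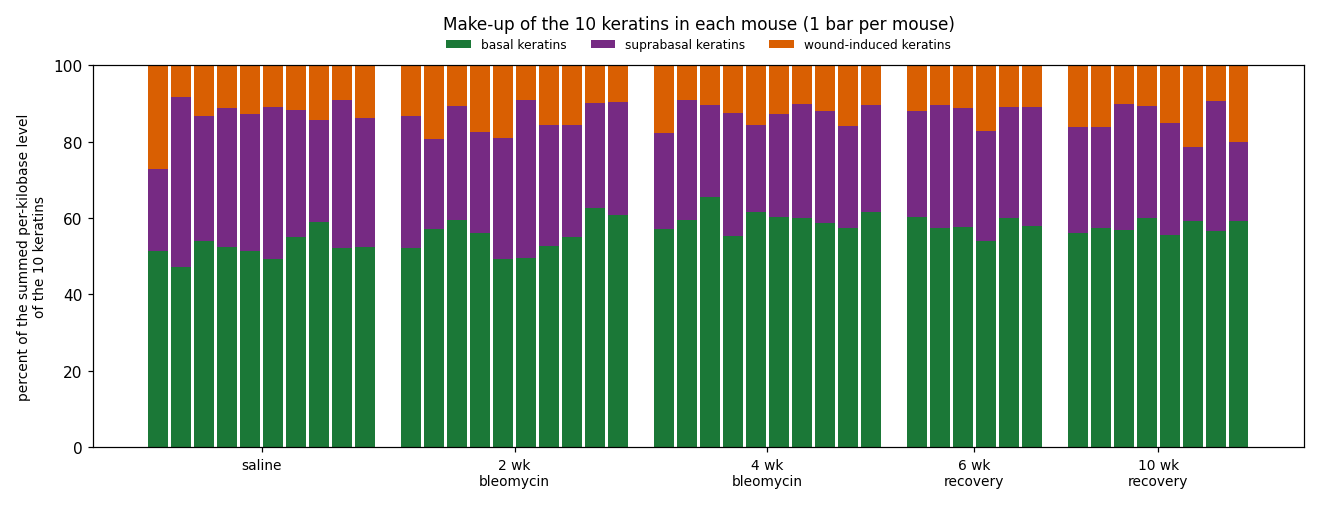
Percent of the summed per-kilobase level of the 10 keratins (y axis) held by basal, suprabasal and wound-induced keratins, 1 stacked bar per mouse in the 5 groups. Basal keratins hold 47.3 to 58.8% with saline and 55.3 to 65.5% at 4 weeks of bleomycin, and the wound-induced share has medians of 12.3%, 14.4% and 12.2% with saline and at 2 and 4 weeks.

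Within groups, keratins of a filament pair varied together from mouse to mouse. For 8 pairs of keratins, log2 values were correlated over the 44 mice after the group means were taken off, with two-sided p-values from 100000 permutations within groups, adjusted over the 8 pairs. The basal partners Krt5 and Krt14 had r = 0.71 (rho = 0.72), the suprabasal partners Krt1 and Krt10 r = 0.77 (rho = 0.73), and the stress partners Krt6a and Krt16 r = 0.85 (rho = 0.81). Each of these had a permutation p of 1e-05 by r and by rho, the smallest that 100000 permutations can give (adjusted p = 1.6e-05), and r was 0.70, 0.64 and 0.82 once the 2 mice most distant from the first gene's median were dropped. Krt6a and Krt6b had r = 0.77 (rho = 0.76, without the 2 most distant mice 0.75), with the same permutation p, and their shared reads were not removed from it.

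The remaining pairs differed in size, and all but the stress partners Krt6b and Krt17 crossed layers. The closest of the 8 was Krt14 with Krt16, both type I chains, at r = 0.88 (rho = 0.85, permutation p = 1e-05, adjusted p = 1.6e-05) and at 0.86 without the 2 most distant mice. Its r within a group was 0.64 with saline, 0.98 and 0.89 at 2 and 4 weeks of bleomycin and 0.71 and 0.85 after recovery. The highest Krt14 (73649) and the highest Krt16 (12072) of the 44 mice were both in 2-week bleomycin mouse 2, a library that stood apart from its group, and r was 0.89 without it and saline mouse 1. Krt16 and Krt14 shared 50-base stretches, and the part of that in the relation was not tested. Krt6b with Krt17 had r = 0.54 (rho = 0.59, permutation p = 8e-05, adjusted p = 0.000107), and 0.54 without the 2 most distant mice, so that within groups mice high in Krt6b tended to be high in Krt17, although the mean of Krt17 was below that with saline under bleomycin (not called). Krt14 with Krt10 had r = 0.40 (rho = 0.37, permutation p = 0.0143, adjusted p = 0.0164; 0.51 without the 2 most distant mice). Krt15 with Krt17 had r = -0.32 (rho = -0.32, permutation p = 0.0374, adjusted p = 0.0374), which was -0.28 without the 2 most distant mice and -0.19 (adjusted p = 0.265) without saline mouse 1 and 2-week bleomycin mouse 2, and the relation rests in part on those mice.

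Outside the 10 keratins, which were left out of this ranking, the genes most like 3 of them were taken as those with the highest r over the 44 mice after the group means were taken off, as a description without a test. By the same measure Krt16 stood above them for Krt14 (0.88) and for Krt6a (0.85). For Krt14 they were Urah (r = 0.83), Glrx (0.82), a glutaredoxin, and Lypd3 (0.82), a surface protein of keratinocytes. For Krt10 they were Il20rb (0.91), a receptor chain for interleukins of the interleukin-20 family, Krt78 (0.91), another suprabasal keratin, and Dmkn (0.91), a secreted protein of differentiating epidermis. For Krt6a they were Endou (0.83), Gjb2 (0.79), a gap junction connexin, and Gpx2 (0.79), a glutathione peroxidase. The measure leaves out differences between groups, in which these 3 did not follow Krt6a. Mean Krt6a was 3695 with saline, 7278 at 2 weeks and 5467 at 4 weeks of bleomycin. In that order mean Gjb2 was 2490, 477 and 332, mean Gpx2 was 121, 61.6 and 98.9, and mean Endou was 791, 814 and 833.

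In a list of genes known from activated keratinocytes, more were called higher than lower in the comparisons in which Krt6b and Krt16 rose. Of 15 such genes in the files 14 were tested, and 9 were called higher and 1 lower at 2 weeks, and 7 higher and 1 lower at 4 weeks. Among all genes tested, 9.30% were called higher and 7.43% lower at 2 weeks, and 10.5% and 7.37% at 4 weeks. The median log2 fold change of the 14 was 1.121 and 0.87, beside 0.0025 and -0.00065 over all genes. The summed level of the 15 genes, which the most abundant ones dominate, did not rise. Its median was 6029 normalized counts with saline, 5565 at 2 weeks, 4861 at 4 weeks, and 5043 and 7453 after recovery. The largest at 2 weeks were S100a9, a subunit of calprotectin (4.08, SE 0.48, limma adjusted p = 3.33e-09), Stfa1, a cystatin-like protease inhibitor (3.90, SE 0.56, limma adjusted p = 3.58e-07), and Serpinb3a, a serine protease inhibitor (3.88, SE 0.44, limma adjusted p = 1.43e-09). Between the end of bleomycin and 6 weeks of recovery 10 of the 14 were called lower and 0 higher (7.14% and 4.80% of all genes). Stfa1 was at -4.48 and Serpinb3a at -4.13. Against saline 0 were called at 6 weeks of recovery (5.04% of all genes), and at 10 weeks 4 were called lower (170 of 17037 genes). Leukocyte markers were also higher under bleomycin, with 3 of 6 called at 2 weeks and 4 at 4 weeks. Which cells made the transcripts of this list was not tested.

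Genes upstream of the keratins and the proteins that work with them were counted in the same way. The shares of all genes were 9.30% higher and 7.43% lower at 2 weeks, and 10.5% and 7.37% at 4 weeks. A count of 1 in these lists lies near those shares. Of the EGF receptor and 7 of its ligands, a route known to induce Krt6 and Krt16, 2 were called higher and 1 lower at 2 weeks, with Epgn at 1.124 (SE 0.26, limma adjusted p = 6.71e-04), Egf at 0.72 and Ereg at -0.59. At 4 weeks 0 were called higher and 2 lower, Ereg at -0.83 and Tgfa at -0.62. Of 12 transcription factors of the epidermis 0 were called at 2 weeks and 1 lower at 4 weeks, Ovol1 at -0.67 (SE 0.16, limma adjusted p = 6.59e-04). Of 17 proteins of desmosomes and hemidesmosomes, which anchor keratin filaments, 1 was called higher and 1 lower at 2 weeks, and 2 higher and 1 lower at 4 weeks. They were Dst, which ties filaments to hemidesmosomes (0.67 and 0.77), Itgb4, called at 4 weeks (0.72), and the desmosomal cadherin Dsc2 (-1.57 and -1.91). Of 12 cornified envelope genes tested 0 were called higher and 1 lower at 2 weeks, and 3 lower at 4 weeks, Ivl at -1.01, Flg2 at -0.74 and Casp14 at -0.61.

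Keratins of the hair follicle were lower under bleomycin, and those of other epithelia were mixed. Beside the counts below, 9.30% of all genes were called higher and 7.43% lower at 2 weeks, and 10.5% and 7.37% at 4 weeks. Of the 7 other epidermal and companion-layer keratins tested, 1 was called lower at 2 weeks and 4 at 4 weeks, and Krt75 of the companion layer had log2 fold changes of -1.81 and -1.40, Krt77 -0.33 (not called) and -0.81, and Krt23 -0.49 (not called) and -0.69. Of the simple-epithelium keratins 1 of 5 was called higher and 3 lower at 2 weeks, and 1 higher and 1 lower at 4 weeks. The 1 mucosal keratin of 3 that was tested, Krt4, was called higher at both times (0.73 and 1.16). All 8 inner root sheath keratins and all 14 hair shaft keratins tested were called lower at both times, with median log2 fold changes of -8.18 and -7.23 at 2 weeks and -7.02 and -6.28 at 4 weeks.

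Markers of some other cells, but not of all, moved in the same groups as the stress keratins. Over all genes, 9.30% were called higher and 7.43% lower at 2 weeks, and 10.5% and 7.37% at 4 weeks. The inner root sheath keratins summed to 2035 to 214410 normalized counts with saline, 31.8 to 1885 at 2 weeks, 31.5 to 4880 at 4 weeks, 101 to 103200 after 6 weeks of recovery and 1320 to 175250 after 10 weeks. Leukocyte markers summed to 2542 to 7057 with saline, 5634 to 14984 at 2 weeks and 4901 to 13332 at 4 weeks, with 3 and 4 of 6 called higher, and to 4188 to 5234 and 3303 to 4591 after recovery. Sebocyte markers, with 4 of 6 called lower at both times, summed to 6278 to 14583 with saline, 4963 to 10472 at 2 weeks and 4238 to 6697 at 4 weeks. Of 5 melanocyte markers 5 were called lower at 2 weeks and 0 at 4 weeks, and of 6 fibroblast markers 3 and 1 were called lower. Of 5 fat cell markers 2 and 3 were called lower, of 5 skeletal muscle markers 0 and 1 higher, and of 4 endothelial markers 1 and 1 higher. None of the leukocyte, sebocyte, melanocyte or inner root sheath genes was at 0 in every mouse of a group. Of 11 proliferation genes 4 were called lower at 2 weeks and 11 at 4 weeks, at medians of -0.47 and -0.98. At 6 weeks of recovery 9 were still called lower than with saline, beside 292 of all 17037 genes. At that time 0 of the wound-induced keratins were called. The part of these lists in the keratin values was not tested.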

How the data were processed

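RNA was taken from back skin of 44 mice with a total RNA kit, libraries were made with a stranded mRNA kit, and 50-base paired reads were sequenced on an Illumina HiSeq. Per the study's methods and the submitters' processing notes, reads were aligned to mm10 with STAR (version 2.4.0) and normalized with DESeq2 (version 1.12.3). The counting tool and gene annotation are not given in the sources used here, nor is whether counting used strand, so that reads of an antisense gene overlapping Krt5, Krt10, Krt6a or Krt6b may be in their values. The authors deposited a normalized signal, read counts divided by a size factor per library. Whole reads were recovered from it for the count tests: 100% of values came out whole within 0.001. Reads counted over all genes in the 44 libraries numbered 8509094 to 15285577. No 2 libraries of a group agreed within sampling noise (smallest chi-square per degree of freedom 5.06).

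Symbols came from the gene name table and GENCODE M21 (42929 of 43411 identifiers matched). The main test was limma (version 3.58.1, mean-variance trend) on log2(value + 1), fitted to genes whose mean exceeded 3 with the 5 groups as the only term and no replicate block. The fold and p thresholds follow the study's methods, and 7 comparisons were made. Alternatives were edgeR (version 4.0.16) quasi-likelihood and DESeq2 (version 1.42.0) on the recovered reads, a pseudocount of 0.1, no filter or at least 10 in 6 mice, trimmed mean of M values and quantile scaling, no fold threshold or 0.5 on the log2 scale, the compared groups alone, the replicate block, 2 libraries left out, and each mouse left out in turn. The fit was tested on simulated data. The members, gene lists and tests were chosen with earlier results of these data known. The text names the 10 keratins in every comparison, the 3 genes most like Krt14, Krt10 and Krt6a, and at most 3 called genes of each other list with the largest change under bleomycin. Per-kilobase levels use the length of the longest transcript of a protein-coding type, and Krt36, Krt85, Rptn and Mki67 are not analysed here.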

Additional observations from a re-analysis of the deposited data

Results flagged for a closer look

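Among 50 sets of values (10 keratins in 5 groups), 3 held a mouse far from the rest by Dixon's ratio of gap to range, with a critical value of 0.466 for groups of 10, and chance alone marks about 1 in 20 groups. Saline mouse 1 had the lowest Krt1 (7980.2 normalized counts) and the lowest Krt10 (30515) of its group, and its inner root sheath keratins summed to the highest value of the 44 mice (214410). Krt2 in 2-week bleomycin mouse 6 was 377 normalized counts, against a group median of 19.2. The change against saline differed between 4 weeks of bleomycin and 6 weeks of recovery for 3 keratins by limma's test of the difference: Krt2 by -1.61 (adjusted p = 0.0214), Krt6b by -5.01 (adjusted p = 1.32e-06) and Krt16 by -2.13 (adjusted p = 0.00316) on the log2 scale.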

How the results depend on the processing

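With no fold threshold the number of keratins called was 5 at 2 weeks (Krt14 and Krt17 added) and 5 at 4 weeks (Krt10 and Krt17 added), against 3 and 3. Leaving out each mouse in turn gave 2 to 4 keratins called at 2 weeks, 3 to 3 at 4 weeks, 2 to 3 between 4 weeks of bleomycin and 6 weeks of recovery, and 0 to 0 in the other 4 comparisons. The correlation of Krt15 with Krt17 was -0.19 (permutation adjusted p = 0.265) without saline mouse 1 and 2-week bleomycin mouse 2. Krt6b and Krt16 kept their calls and directions in the 3 comparisons in which they were called under every alternative run. Over 10 settings in which all genes were fitted, calls of a keratin changed in 1 comparison with no filter (Krt6a, 2 weeks), 1 with the compared groups alone (Krt6a, 2 weeks), 2 with edgeR and 1 with DESeq2 (Krt2), and 1 without the 2 libraries (Krt2). The 2-week calls of Krt2 by edgeR and DESeq2 rest on bleomycin mouse 6, without which neither tool called it. The other causes were not tested. Fitted values near 0 changed sign 15 times over 11 keratin comparisons, none of them called and none larger than 0.36.

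Mice with the same replicate number did not deviate together (median correlation -0.0022 over 78 pairs, 18 of them above 0.1, against -0.0042 over 690 pairs with different numbers), and 4 of 44 mice correlated best with their own number. With the replicate block 3 keratins were called at 2 weeks, and the block changed 0 calls. Depth limits Krt2, with 4 to 393 reads, and Krt6b outside bleomycin.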

Other observations

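Among the cells outside the epidermis, the melanocyte markers, called lower at 2 weeks only, summed to a median of 1987 normalized counts with saline (range 256 to 10955), 658 at 2 weeks of bleomycin (339 to 1543), 1451 at 4 weeks (1133 to 2430), 740 after 6 weeks of recovery and 1351 after 10 weeks. Mlana, a melanosome protein, had a log2 fold change of -2.13 (SE 0.53, limma adjusted p = 0.00129) at 2 weeks. Krt7, a keratin of simple and glandular epithelium, was called higher at 2 weeks (0.77, SE 0.17, limma adjusted p = 2.40e-04) and at 4 weeks (1.05, SE 0.17, limma adjusted p = 2.08e-06), whereas Krt18 was called lower at 2 weeks (-1.44, SE 0.41, limma adjusted p = 0.00455). Whether these changes differed between times was tested for each gene. Between 2 and 4 weeks 0 of the 5 melanocyte markers and 0 of the 5 simple-epithelium keratins were called (2.35% of all genes), so that a difference between the times was not shown.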
